A study of Mus musculus with 14 samples.

Results

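The 9 genes described here make, bind, sense or break down retinoic acid, the active form of vitamin A. They are Stra6, Rdh10, Dhrs9, Aldh1a1, Aldh1a2, Aldh1a3, Crabp2, Cyp26b1 and Rarg, taken as the rows of those symbols in a deposited table of gene expression in mouse ear, 9 of 24035 gene rows. The genes were selected on earlier results of these samples. Which comparison selected them is not recorded, so every difference among the groups counts as used, and the members' values are given as a description with no p-value. All 9 passed the filter for testing, at least 1 TPM in at least 3 samples. TPM, a share of all transcripts in a sample, corrects for gene length, so levels of different genes can be set side by side.

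Expression was measured by mRNA sequencing in 14 whole ears of mice without Langerhans cells, which are epidermal dendritic cells. LC-DTA mice lacked them long term, while LC-DTR mice had lost them to diphtheria toxin 3 days before. A time after toxin is given for LC-DTR samples only, so genotype, toxin and time since the loss cannot be told apart. Both faces of the ear received 20 µl of vehicle (acetone and olive oil, 4:1) or of 1% croton oil, an irritant that contains phorbol esters, and ears were collected 6 h later. Each genotype had 3 vehicle and 4 croton oil samples. The loss of Langerhans cells was shared by all 4 groups, and ears that kept them were not analysed here. The labels give no age or sex, do not name the promoter that drives the transgenes, and do not say whether samples were separate animals. Where they were not, the spread between samples is partly technical.

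Retinol reaches cells bound to a carrier protein and can enter through the receptor Stra6. Retinol dehydrogenases such as Rdh10 and Dhrs9 oxidise it to retinal, reversibly, and the retinaldehyde dehydrogenases Aldh1a1, Aldh1a2 and Aldh1a3 oxidise retinal to retinoic acid, which is not reversible. Crabp2 carries retinoic acid to the nucleus, where heterodimers of a retinoic acid receptor (RAR) and a retinoid X receptor (RXR) bind DNA and switch genes on. Enzymes of the Cyp26 family end the signal by hydroxylating retinoic acid. In skin retinoids act on keratinocyte differentiation, hair follicles and sebaceous glands, and RAR gamma is the main RAR of the epidermis.

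From 13733 to 14332 genes reached 1 TPM in a sample. TPM keep no depth, so the counting error behind a value is unknown. Within a group, samples correlated across genes at 0.986 to 0.996. The first principal component, with 50.5% of the variance, separated croton oil from vehicle, and LC-DTR croton oil samples 2 and 3 lay nearest to vehicle on it (5.26 and 8.06, against 28.5 and 28.6 for samples 1 and 4). Cd207, which defines Langerhans cells, was at or below 1.88 TPM in every sample. Counts and differences below come from limma on log2(TPM + 1) over 14693 genes, where a gene is called at a Benjamini-Hochberg adjusted p under 0.05. A difference ± SE is on that log2(TPM + 1) scale, which understates changes of genes at low TPM.

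**Figure D1:**
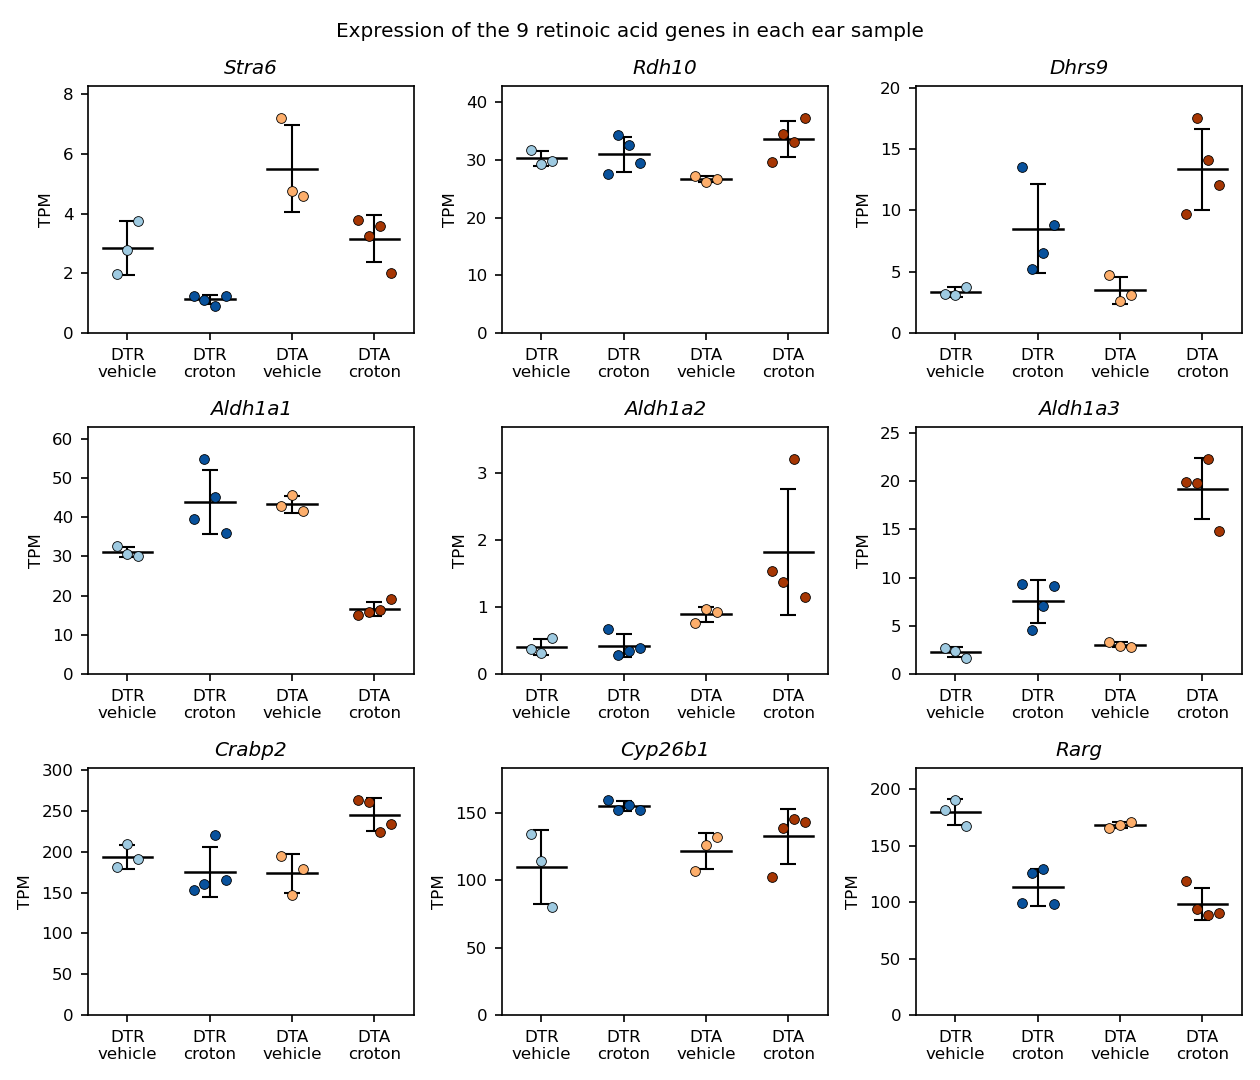
TPM of the 9 genes in each of the 14 samples, by group, with 1 panel per gene, the group mean as a line and the SD as a bar; DTR and DTA stand for LC-DTR and LC-DTA. Aldh1a1 in LC-DTA croton oil (15.2 to 19.1) lies below every other group, while Aldh1a3 in the same samples (14.9 to 22.3) lies above every other group.

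Stra6 (chr9:58063788-58153996, plus strand, GENCODE M21 on GRCm38, as for the genes below), the membrane receptor that takes up retinol from its carrier, was scarce, and was lower after croton oil and higher in LC-DTA ears. LC-DTR vehicle samples held 1.98, 2.79 and 3.76 TPM and LC-DTR croton oil samples 1.25, 1.10, 0.912 and 1.24. LC-DTA vehicle samples held 7.19, 4.74 and 4.58 and LC-DTA croton oil samples 3.79, 3.24, 3.60 and 2.02. All croton oil samples lay below the vehicle samples of their genotype, and the LC-DTA samples lay above the LC-DTR samples of the same treatment. Croton oil went with a mean 2.53 times lower in LC-DTR (-0.83 ± 0.19) and 1.74 times lower in LC-DTA (-0.64 ± 0.19). The LC-DTA mean was 1.93 times the LC-DTR mean under vehicle (0.76 ± 0.20) and 2.81 times after croton oil (0.95 ± 0.17). LC-DTA vehicle sample 1 was the highest of all. Without it the croton oil difference in LC-DTA was -0.47 and the vehicle difference of the genotypes 0.58, and neither was called. The latter was also not called without LC-DTR vehicle sample 1 (0.59) or after quantile normalization. The croton oil difference in LC-DTA was also not called without LC-DTA croton oil samples 3 and 4.

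Rdh10 (chr1:16105774-16133734, plus strand), the dehydrogenase that carries out the first oxidation of retinol in the embryo and in many adult tissues, varied least. The LC-DTR vehicle samples had 31.7, 29.3 and 29.8 TPM, and LC-DTR croton oil samples 27.5, 34.3, 32.7 and 29.5, on both sides of them. In LC-DTA, vehicle samples had 27.3, 26.1 and 26.6, below every LC-DTR vehicle sample, and LC-DTA croton oil samples 29.6, 34.4, 33.1 and 37.2, above them. The highest of the 14 values was 1.43 times the lowest. The difference after croton oil was 0.03 ± 0.08 in LC-DTR and 0.32 ± 0.08 in LC-DTA, and only the latter was called. Without LC-DTA croton oil samples 3 and 4 that difference was 0.25 and not called. The difference of the genotypes under vehicle (-0.18 ± 0.09) was not called on the deposited scale and was called after rescaling by the median ratio (-0.29) or quantile normalization (-0.28). The difference of the responses (0.29 ± 0.12) was not called either, and was called at 0.31 and 0.34 after those 2 rescalings, at 0.35 without LC-DTA croton oil sample 1 and at 0.40 without LC-DTR croton oil samples 2 and 3.

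Dhrs9 (chr2:69380445-69404533, plus strand), a short-chain dehydrogenase found in differentiating epithelia, was higher after croton oil in both genotypes. Under vehicle the LC-DTR samples held 3.17, 3.09 and 3.79 TPM and LC-DTR croton oil samples 13.5, 5.23, 6.53 and 8.78. In LC-DTA the vehicle samples held 4.73, 2.63 and 3.10 and LC-DTA croton oil samples 9.69, 17.5, 14.1 and 12.1. Croton oil and vehicle samples did not overlap in either genotype, and the lowest croton oil values were those of LC-DTR samples 2 and 3. The mean was 2.54 times higher in LC-DTR (1.06 ± 0.25) and 3.83 times higher in LC-DTA (1.68 ± 0.25), and the responses themselves differed by 0.62 ± 0.36, which was not called. After croton oil LC-DTA exceeded LC-DTR by 0.64 ± 0.24. The groups overlapped there, and the call was lost in 11 alternatives, among them the replicate number as a block (0.64), without LC-DTR croton oil sample 2 (0.46), 3 (0.55) or both (0.24), and without LC-DTA croton oil sample 2 (0.51) or 3 (0.60).

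The promoter of Dhrs9 (chr2:69380212-69380511, plus strand, RefSeq on GRCm38.p6, 250 bases before the start to 50 after it) is shown because it holds a TGANTCA motif, the element bound by AP-1, a factor that phorbol esters are known to activate. The run of capitals nearer the start is TGACTCA, 18 bases before the RefSeq start, and the other is TGACCT, the reverse complement of the hexamer AGGTCA that retinoid receptors bind, 88 bases before it.
Dhrs9: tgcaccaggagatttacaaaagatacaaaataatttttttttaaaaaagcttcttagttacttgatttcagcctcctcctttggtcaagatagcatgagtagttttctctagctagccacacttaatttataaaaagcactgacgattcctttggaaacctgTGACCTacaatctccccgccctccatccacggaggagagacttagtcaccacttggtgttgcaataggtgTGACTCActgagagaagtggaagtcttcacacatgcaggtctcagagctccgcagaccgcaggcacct

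Of the 3 retinaldehyde dehydrogenases, Aldh1a1 was the most abundant under vehicle and lay on opposite sides of vehicle after croton oil in the 2 genotypes. Its levels were 32.6, 30.7 and 30.2 TPM in LC-DTR vehicle samples, and 39.5, 54.8, 45.1 and 36.0 in LC-DTR croton oil samples, above all of them. They were 42.8, 45.6 and 41.5 in LC-DTA vehicle samples, and 15.2, 15.8, 16.3 and 19.1 in LC-DTA croton oil samples, below every sample of the other groups. The mean was 1.41 times higher after croton oil in LC-DTR (0.46 ± 0.12) and 2.61 times lower in LC-DTA (-1.34 ± 0.12), and the responses differed by -1.80 ± 0.16. Between genotypes the LC-DTA mean was 1.39 times the LC-DTR mean under vehicle (0.46 ± 0.12) and 2.65 times lower after croton oil (-1.34 ± 0.11). The vehicle difference was not called without LC-DTR vehicle sample 2 (0.45) or LC-DTA vehicle sample 2 (0.42). In LC-DTR the highest croton oil values were those of samples 2 and 3, and without both the difference was 0.27 and still called.

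Aldh1a1 (chr19:20492715-20643465, plus strand) has a close copy, Aldh1a7, nearby on the same chromosome (chr19:20692953-20727562, minus strand), and how reads that match both were counted is not given in the sources used here. Aldh1a7 was looked up for this reason, after the values of Aldh1a1 were seen. Its mean was 12.8 ± 3.90 TPM (SD, n = 3) in LC-DTR vehicle, 6.53 ± 1.42 (n = 4) in LC-DTR croton oil, 16.7 ± 0.600 (n = 3) in LC-DTA vehicle and 10.1 ± 0.235 (n = 4) in LC-DTA croton oil. It fell after croton oil in both genotypes (-0.87 ± 0.17, limma's adjusted p = 0.00077, and -0.68 ± 0.17, adjusted p = 0.0033). The sum of both genes was 41.6 to 47.5 TPM in LC-DTR vehicle and 43.2 to 62.2 in LC-DTR croton oil, which overlap, and as 1 gene the difference in LC-DTR was 0.18 and not called. In LC-DTA the sum went from 57.6 to 63.0 under vehicle to 25.5 to 29.2 after croton oil. Counted together, the 2 copies were thus lower after croton oil in LC-DTA, as Aldh1a1 alone was, and showed no call in LC-DTR.

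The Aldh1a1 promoter that lies furthest upstream (chr19:20492333-20492632, plus strand, RefSeq on GRCm38.p6) also holds TGACTCA, shown in capitals, 57 bases before the RefSeq start. The GENCODE start of the gene lies downstream of this window.
Aldh1a1: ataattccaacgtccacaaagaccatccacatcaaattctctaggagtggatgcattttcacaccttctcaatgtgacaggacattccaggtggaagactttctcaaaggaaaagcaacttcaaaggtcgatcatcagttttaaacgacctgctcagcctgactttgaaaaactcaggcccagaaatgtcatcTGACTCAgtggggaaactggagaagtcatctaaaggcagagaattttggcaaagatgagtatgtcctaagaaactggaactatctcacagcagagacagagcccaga

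Aldh1a3 (chr7:66390890-66427517, minus strand), the retinaldehyde dehydrogenase of surface ectoderm and sensory epithelia, had the largest difference after croton oil of the 9 genes in both genotypes. Under vehicle the LC-DTR samples held 2.73, 2.41 and 1.71 TPM and LC-DTR croton oil samples 9.29, 4.57, 7.05 and 9.17. Among LC-DTA ears, vehicle samples held 3.35, 2.94 and 2.83 and LC-DTA croton oil samples 19.9, 19.8, 22.3 and 14.9. In none of the 4 comparisons did the groups overlap, and LC-DTR samples 2 and 3 again had the lowest croton oil values. The mean was 3.29 times higher after croton oil in LC-DTR (1.35 ± 0.19) and 6.33 times higher in LC-DTA (2.31 ± 0.19), and after croton oil the LC-DTA mean was 2.56 times the LC-DTR mean (1.28 ± 0.18). The responses differed by 0.97 ± 0.28. That difference was called in all alternatives except without LC-DTA vehicle sample 2 (0.95) or 3 (0.93). Under vehicle the genotypes differed by 0.31 ± 0.21, which was not called.

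Aldh1a2 (chr9:71215789-71296243, plus strand), the enzyme that makes most retinoic acid in the embryonic trunk and that some dendritic cells express, reached 1 TPM only in LC-DTA croton oil and passed the filter through those 4 samples alone. Its levels there were 1.53, 1.37, 3.21 and 1.15 TPM. LC-DTA vehicle samples held 0.767, 0.968 and 0.934, LC-DTR vehicle samples 0.376, 0.311 and 0.537, and LC-DTR croton oil samples 0.677, 0.283, 0.347 and 0.383. The LC-DTA samples lay above the LC-DTR samples under both treatments. The difference after croton oil was 0.52 ± 0.18 in LC-DTA, 0.31 there without croton oil sample 3, the highest, and 0.01 ± 0.18 in LC-DTR. Since the gene was tested only because of the group where it is high, its calls are not read. After croton oil LC-DTA exceeded LC-DTR by 0.94 ± 0.17, a ratio of means of 4.30. All 6 dendritic cell markers listed were found, none was at 0 in every sample, and their summed level was 8.13 to 12.1 TPM in LC-DTR vehicle, 10.8 to 18.9 in LC-DTR croton oil, 13.7 to 21.3 in LC-DTA vehicle and 22.1 to 44.0 in LC-DTA croton oil. The single markers of this paragraph were named after their values were seen. In LC-DTA the higher sum came mostly from Cd209a, with means of 8.11 TPM under vehicle and 27.6 after croton oil. Itgax, at low TPM, was also called higher there (0.526 and 1.90), as it was in LC-DTR (0.461 and 1.24). In LC-DTA Flt3 (4.74 and 2.14) and Zbtb46 (2.67 and 2.08) were called lower, and Ccr7 (1.02 and 1.00) was not called. Xcr1 (0.380 and 0.311) was below the filter. The 7 monocyte and macrophage markers, of 7 listed and none at 0 in every sample, summed to 173.6 to 278 TPM in LC-DTR vehicle, 221 to 292 in LC-DTR croton oil, 352 to 450.1 in LC-DTA vehicle and 386 to 476 in LC-DTA croton oil. Among them Ly6c2, a surface protein of inflammatory monocytes, had means of 3.81 and 48.7 in LC-DTA vehicle and croton oil, against 2.58 and 4.76 in LC-DTR. Ccr2, the chemokine receptor that brings monocytes into tissue, had 5.74 and 37.9 in LC-DTA, against 7.25 and 6.44 in LC-DTR. Both were called higher after croton oil in LC-DTA and not in LC-DTR, with a called difference of the responses. The rest of that list was Mrc1, C1qa, C1qb, Csf1r and Emr1. In LC-DTA the sum of all 7 overlapped between vehicle (352 to 450.1 TPM) and croton oil (386 to 476). Ly6c2 and Ccr2 therefore do not stand for the list as a whole, which did not rise with them. The part of these cells in the Aldh1a2 values was not tested. In whole tissue, fewer cells of a type and less RNA per cell cannot be told apart.

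Summed over the 3 enzymes, the level varied less between groups than the share of each enzyme. The sum was 33.9 ± 1.71 TPM (SD, n = 3) in LC-DTR vehicle, 51.8 ± 5.96 (n = 4) in LC-DTR croton oil, 47.2 ± 2.19 (n = 3) in LC-DTA vehicle and 37.6 ± 2.89 (n = 4) in LC-DTA croton oil. Under vehicle Aldh1a1 made up 92.1% ± 0.899 of it in LC-DTR and 91.7% ± 0.449 in LC-DTA. After croton oil its share was 84.2% ± 5.97 in LC-DTR and 44.3% ± 6.83 in LC-DTA. The share of Aldh1a3 was 6.71% ± 1.26 and 6.44% ± 0.630 under vehicle, and 15.0% ± 5.68 in LC-DTR and 51.0% ± 5.73 in LC-DTA after croton oil. In 3 of 4 LC-DTA croton oil samples Aldh1a3 exceeded Aldh1a1 in TPM, and in sample 4 Aldh1a1 (19.1) exceeded Aldh1a3 (14.9). These shares are of transcripts and say nothing of enzyme activity.

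**Figure D2:**
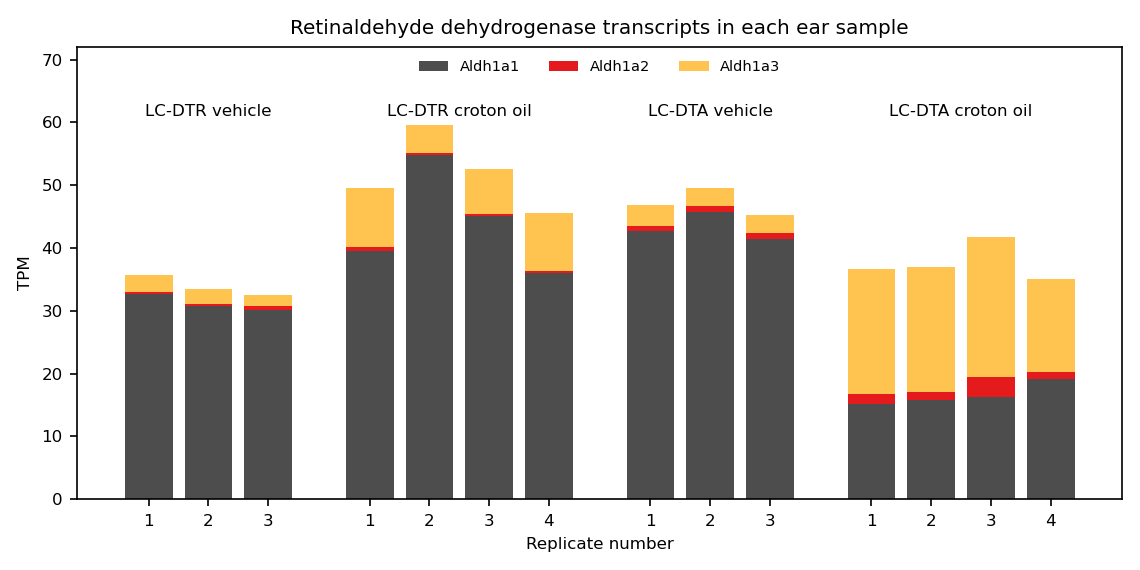
TPM of Aldh1a1, Aldh1a2 and Aldh1a3 stacked for each of the 14 samples, so that the bar height is their sum. Aldh1a1 fills most of each bar outside LC-DTA croton oil, where Aldh1a3 takes 42.4 to 54.4% of the sum.

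Crabp2 (chr3:87948666-87953376, plus strand), the carrier that delivers retinoic acid to its nuclear receptors, was the most abundant of the 9 genes in every group and was higher after croton oil in LC-DTA. The LC-DTR vehicle samples had 181, 209 and 191 TPM and LC-DTR croton oil samples 153, 161, 220 and 165, with overlap. The LC-DTA vehicle samples had 195, 148 and 178, and LC-DTA croton oil samples 263, 262, 224 and 234, above every other sample. The difference after croton oil was -0.16 ± 0.12 in LC-DTR, not called, and 0.50 ± 0.12 in LC-DTA, a ratio of means of 1.41. The responses differed by 0.66 ± 0.17. Without LC-DTR croton oil sample 3, the only one of its group above the vehicle samples, the LC-DTR difference was -0.28 and called. Fabp5, which can carry retinoic acid to another nuclear receptor, had a similar pattern and is described with the other genes of the pathway.

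Cyp26b1 (chr6:84571414-84593908, minus strand), a hydroxylase that breaks down retinoic acid, was higher after croton oil in LC-DTR. Levels in LC-DTR vehicle samples were 134, 115 and 80.3 TPM, and those in LC-DTR croton oil samples 160, 152, 156 and 153, above all 3. LC-DTA vehicle samples held 107, 127 and 132 and LC-DTA croton oil samples 102, 139, 146 and 143, and these groups overlapped. The difference after croton oil was 0.53 ± 0.15 in LC-DTR and 0.11 ± 0.15 in LC-DTA, and the responses differed by -0.41 ± 0.21, which was not called. LC-DTR vehicle sample 3 was the lowest of the 14. Without it the LC-DTR difference was 0.32 and not called.

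Rarg (chr15:102234938-102257517, minus strand), the gene of RAR gamma, was lower after croton oil in both genotypes by similar amounts. LC-DTR vehicle samples held 182, 190 and 168 TPM and LC-DTR croton oil samples 99.2, 126, 129 and 98.1. LC-DTA vehicle samples held 166, 169 and 171 and LC-DTA croton oil samples 119, 93.9, 88.7 and 90.7. Croton oil and vehicle did not overlap in either genotype, and LC-DTR croton oil samples 2 and 3 lay nearest to vehicle. The mean was 1.59 times lower in LC-DTR (-0.68 ± 0.11) and 1.72 times lower in LC-DTA (-0.78 ± 0.11), and the responses differed by -0.11 ± 0.16, not called. The genotypes overlapped under both treatments. Their difference after croton oil (-0.20 ± 0.10) was not called on the deposited scale, and was called after rescaling by the median ratio (-0.30) or without LC-DTA croton oil sample 1 (-0.30).

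The Rarg promoter at the start of the gene (chr15:102257473-102257772, minus strand, RefSeq on GRCm38.p6, printed in the direction of the gene) holds no TGANTCA. It was chosen for display with the direction of Rarg after croton oil known. The promoters held for Aldh1a2, Cyp26b1 and Stra6 lack the motif too, as do most of all promoters, so its lack is not read against a direction. The capitals mark TGACCT, the receptor hexamer on the opposite strand, 225 bases before the start.
Rarg: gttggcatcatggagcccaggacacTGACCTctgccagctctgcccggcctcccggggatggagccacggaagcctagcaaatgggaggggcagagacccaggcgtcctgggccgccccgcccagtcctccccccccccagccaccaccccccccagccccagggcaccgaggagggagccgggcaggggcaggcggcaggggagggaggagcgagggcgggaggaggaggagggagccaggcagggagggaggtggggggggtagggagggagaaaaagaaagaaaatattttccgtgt

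The RefSeq table held 11 promoters for 6 of the 9 genes, namely Aldh1a1, Aldh1a2, Dhrs9, Cyp26b1, Rarg and Stra6, and none for Aldh1a3, Rdh10 or Crabp2. Both strands were searched for TGANTCA and for the receptor hexamer AGGTCA. The AP-1 motif stood in 2 of the 11 promoters, those printed for Dhrs9 and Aldh1a1, and in 7.81% of all 32851 promoters of the same length. Natural sites vary from the consensus, so 3 other spellings also counted as the hexamer. A hexamer stood in 4 of the 11 promoters, and in 43.7% of all. The consensus was the match in the promoters printed for Dhrs9 and Rarg. The spelling AGTTCA was the match in a promoter of Stra6 that begins inside the gene. The spelling GGGTCA was the match in the downstream promoter of Aldh1a1, on the opposite strand. The remaining spelling, GGTTCA, stood in 0 of the 11. Direct repeats of the hexamer spaced by 1, 2 or 5 bases stood in 0 of the 11, and in 0.222%, 0.268% and 0.0974% of all. A match of letters is a description of the window and not a site of binding, and the AP-1 motif occurred both in Dhrs9, which was higher after croton oil in both genotypes, and in Aldh1a1, which was lower in LC-DTA.

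By level, the genes kept nearly the same order in all groups. Crabp2, Rarg and Cyp26b1 were the 3 most abundant in each, Aldh1a1 and Rdh10 followed, except that Rdh10 exceeded Aldh1a1 in LC-DTA croton oil, and Aldh1a2 was last in each. Neighbours that did not differ beyond their spread in LC-DTR vehicle were Crabp2 (194 ± 14.3 TPM, SD, n = 3) and Rarg (180 ± 11.4), Aldh1a1 (31.2 ± 1.30) and Rdh10 (30.3 ± 1.29), and Dhrs9 (3.35 ± 0.385), Stra6 (2.85 ± 0.891) and Aldh1a3 (2.29 ± 0.522). In LC-DTA croton oil Aldh1a3 (19.2 ± 3.12, n = 4) had passed Aldh1a1 (16.6 ± 1.72), with overlap.

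**Figure D3:**
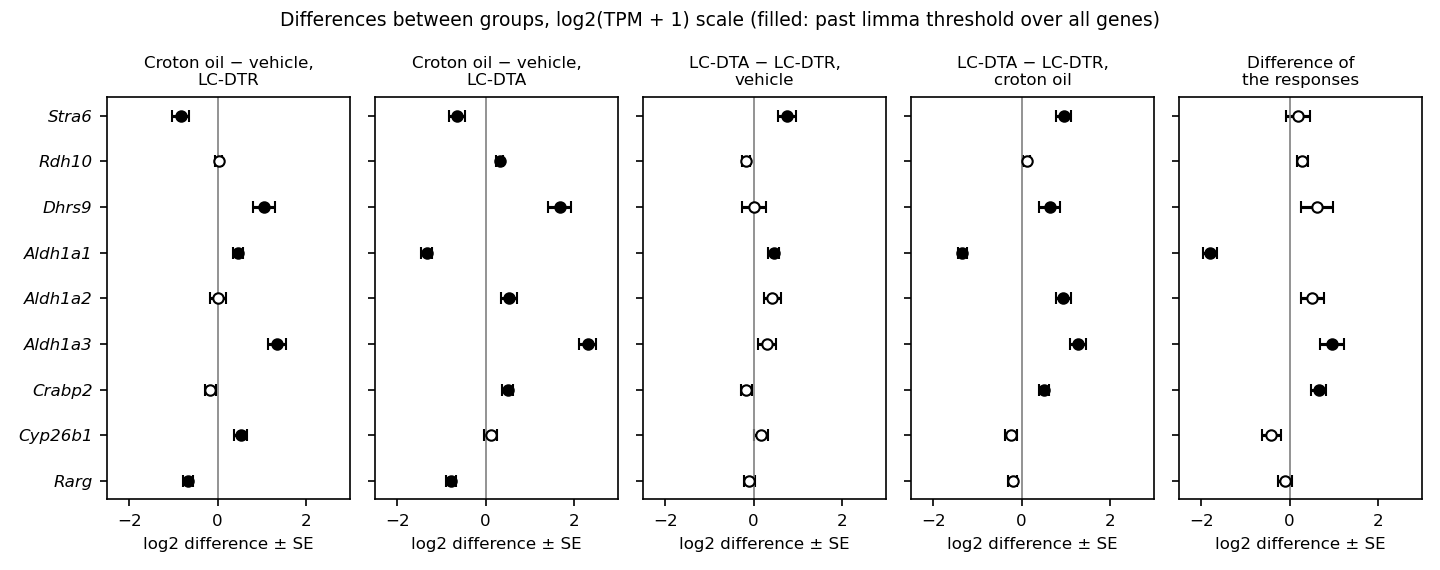
Difference ± SE on the log2(TPM + 1) scale of the 9 genes in the 4 comparisons of 2 groups and for the difference of the responses, filled where the gene was called over all genes tested. Aldh1a1 lies on opposite sides of 0 for croton oil in LC-DTR (0.46) and LC-DTA (-1.34), and Aldh1a3 lies furthest above 0 in both.

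After croton oil in LC-DTR, 4 of the 9 genes were called higher and 2 lower, against 22.1% and 29.5% of the 14693 genes tested, and 6 did not overlap, against 47.7%. Their median difference was 0.03, and that of all genes tested -0.06. In LC-DTA, 5, with Aldh1a2 among them, were called higher and 3 lower, against 24.2% and 34.5%, and 8 did not overlap, against 63.0%, with a median of 0.32 against -0.09. Since the members were selected on these samples, nothing is read from these counts. Markers of other cells moved with croton oil as well. The 5 neutrophil markers found of 6 listed summed to 24.9 to 67.8 TPM in LC-DTR vehicle and 257 to 758 in LC-DTR croton oil, and to 32.5 to 65.7 and 425 to 653 in LC-DTA. The 7 keratinocyte markers, of 7 listed, summed to 33294 to 40726 and 21941 to 27952 in LC-DTR, and to 29294 to 30644 and 24901 to 28086 in LC-DTA. The largest part of that sum was Krt10, a keratin of suprabasal cells, which was called lower in LC-DTR and not called in LC-DTA (means of 14778 and 13266). The markers of basal cells, named after their values were seen, did not move together. Krt5 went with the sum and was called lower in LC-DTR (5952 and 2467) and LC-DTA (5456 and 3855). Krt14 was called higher after croton oil in LC-DTA (5095 and 6289), though lower in LC-DTR (5731 and 4195), and Trp63 higher in LC-DTR (179 and 233) and LC-DTA (139.7 and 189). The 8 hair follicle markers, of 8 listed, summed to 21.5 to 46.7 and 10.9 to 14.6 in LC-DTR, and to 21.9 to 33.0 and 8.11 to 12.5 in LC-DTA. No marker of these lists was at 0 in every sample, and their part in the members' values was not tested.

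Between genotypes under vehicle, 2 of the 9 genes (Stra6 and Aldh1a1) were called higher in LC-DTA and 0 lower, against 19.1% and 5.34% of genes tested, and 5 did not overlap, against 42.5%. After croton oil 5, with Aldh1a2 among them, were called higher and 1 lower, against 34.3% and 18.0%, and 6 did not overlap, against 45.2%. The median difference was 0.17 against 0.10 for all genes under vehicle, and 0.50 against 0.09 after croton oil. The responses of 2 genes were called higher in LC-DTA and 1 lower (Aldh1a3, Crabp2 and Aldh1a1), against 10.5% and 12.6%. The genotype comparisons depend on scale, since rescaling by the median ratio moved the median of all genes under vehicle from 0.10 to -0.01. Under vehicle 2810 genes were called higher in LC-DTA and 785 lower on the deposited scale, 1728 and 1712 after the median ratio, and 1641 and 1769 after quantile normalization. After croton oil the split was 5041 and 2647 on the deposited scale, 3686 and 3709, and 3746 and 3697. The 6 fibroblast markers summed to 1914 to 4071 TPM in LC-DTR vehicle, 2057 to 2920 in LC-DTR croton oil, 5920 to 7127 in LC-DTA vehicle and 3852 to 5181 in LC-DTA croton oil. The 5 Schwann cell markers summed to 169 to 262, 159 to 220, 352 to 444 and 221 to 293 in the same order, and the 6 mast cell markers to 201 to 297, 180 to 291, 395 to 600 and 357 to 458. All markers of these 3 lists were found, and none was at 0 in every sample. Their part in the genotype differences was not tested.

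Within LC-DTR croton oil, samples 2 and 3, which lay nearest to vehicle over all genes, also had the lower neutrophil sums (333 and 257 TPM, against 758 and 720 in samples 1 and 4). They had the lower Aldh1a3 (4.57 and 7.05, against 9.29 and 9.17) and Dhrs9 (5.23 and 6.53, against 13.5 and 8.78), and the higher Rarg (126 and 129, against 99.2 and 98.1), in each case nearer to vehicle. Aldh1a1 went the other way, at 54.8 and 45.1 TPM in samples 2 and 3 and 39.5 and 36.0 in samples 1 and 4. For this gene the samples nearest to vehicle over all genes lay furthest from vehicle. Stra6 also lay further from vehicle in samples 2 and 3 (1.10 and 0.912 TPM) than in samples 1 and 4 (1.25 and 1.24). Rdh10 was higher in samples 2 and 3 (34.3 and 32.7 TPM) than in samples 1 and 4 (27.5 and 29.5). Its LC-DTR vehicle samples held 29.3 to 31.7. Aldh1a2, below 1 TPM in each, was lower in samples 2 and 3 (0.283 and 0.347, against 0.677 and 0.383). Crabp2 and Cyp26b1 did not separate samples 2 and 3 from samples 1 and 4. No test was made, since these samples were set apart by the data.

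The genes most like each member over the 14 samples were ranked by Pearson r of log2(TPM + 1), as a description with no p-value. The samples fall into 4 groups, and r does not separate differences between groups from those within them. For Aldh1a3 they were Nhp2l1 (0.991), Nfe2l2 (0.988), the regulator of the oxidative stress response, and Lyar (0.987). Nfe2l2 had means of 66.8, 102, 70.7 and 148 TPM in LC-DTR ears under vehicle and croton oil and in LC-DTA ears under vehicle and croton oil, the order used below. For Dhrs9 they were Slc5a8 (0.979), Eif3c (0.976) and Klk6 (0.966), a kallikrein protease of skin, at 89.3, 251, 117 and 326 TPM. For Rarg they were Vangl2 (0.989), a planar cell polarity gene, Bcl2l14 (0.987) and Apoe (0.986), and Vangl2 had 25.3, 10.9, 24.1 and 9.58 TPM. For Aldh1a1 they were Wnt11 (0.963), a Wnt ligand, Sidt2 (0.962) and Abca6 (0.954), and Wnt11 had 6.10, 8.90, 10.0 and 3.53 TPM. For Crabp2 they were Psmc5 (0.946), Tufm (0.943) and Fabp5 (0.931), and for Stra6 Serpinb1c (0.957), Atp5o (0.943) and Matn4 (0.942). The values were lower for Rdh10, with Tvp23b (0.941), Atp2c1 (0.917) and Arl5a (0.913), for Cyp26b1, with Hnrnpa1 (0.938), Diap1 (0.931) and Pogk (0.925), and for Aldh1a2, with Ngdn (0.938), Micall2 (0.927) and Gsap (0.923).

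Outside the 9 genes, 47 other genes of the pathway were listed from knowledge of it with earlier results of these samples known, so neither their counts nor their p-values are independent support for a direction of the list. All were found, and 37 passed the filter. After croton oil in LC-DTR 5 of the 37 rose and 16 fell, beside 22.1% and 29.5% of all genes tested, with a median of -0.18 against -0.06. In LC-DTA 8 rose and 16 fell, beside 24.2% and 34.5%, with a median of -0.22 against -0.09. Between genotypes under vehicle 9 were higher and 5 lower in LC-DTA, beside 19.1% and 5.34%, and after croton oil 15 were higher and 11 lower, beside 34.3% and 18.0%. The medians there were 0.09 and 0.10, near those of all genes (0.10 and 0.09). The responses of 3 were higher and of 7 lower in LC-DTA, beside 10.5% and 12.6%. The counts of the smaller groups below stand beside the same shares of all genes. Adjusted p-values below are limma's, over all genes tested.

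Among the 15 tested genes of retinol oxidation and retinal reduction, 8 fell and 1 rose after croton oil in LC-DTR, and 6 fell and 1 rose in LC-DTA. Adh7, an alcohol dehydrogenase of epithelia that oxidises retinol, fell in both, from 190, 226 and 275 TPM to 58.1, 113, 100 and 62.0 in LC-DTR (-1.50 ± 0.21, adjusted p = 6.9e-05) and from 155, 165 and 159 to 50.2, 37.2, 42.1 and 51.6 in LC-DTA (-1.81 ± 0.21, adjusted p = 1e-05). Its levels exceeded those of Rdh10 and Dhrs9 in every sample. Adh1, another retinol-oxidising alcohol dehydrogenase, fell in LC-DTA from 96.6, 110.5 and 115 TPM to 53.4, 41.8, 36.0 and 51.9 (-1.23 ± 0.17, adjusted p = 4.8e-05). In LC-DTR its difference was -0.35 ± 0.17 (adjusted p = 0.11), and -0.46 and called without croton oil sample 2. The responses differed by -0.88 ± 0.24 (adjusted p = 0.019), and by -0.62 without LC-DTR croton oil samples 2 and 3, where the call was lost. Sdr16c5, an epidermal retinol dehydrogenase, fell in LC-DTR from 196 to 199 TPM to 96.3 to 136 (-0.85 ± 0.09, adjusted p = 1.5e-05), was at 125 to 135 and 109 to 128 in LC-DTA (-0.12 ± 0.09, adjusted p = 0.29), and its responses differed by 0.73 ± 0.13 (adjusted p = 0.0024). Its neighbour Sdr16c6, whose reads may be shared with it, fell in LC-DTR by 0.87 ± 0.14 on the log2 scale (adjusted p = 0.00028). Sdr16c6 was called lower in LC-DTA as well (-0.40), a call lost in 6 alternatives, and the difference of its responses (0.47) was not called.

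Of the 9 tested genes of uptake, transport and storage, 3 rose, Ttr among them, and 2 fell in LC-DTR, and 4 rose and 3 fell in LC-DTA. Ttr, transthyretin, which carries retinol-binding protein in blood, rose from 1.07, 0.921 and 0.384 TPM to 5.15, 4.78, 7.14 and 4.85 in LC-DTR (1.86 ± 0.16). It passed the filter through those croton oil samples, where it is high, so its calls are not read. With no filter it was called as well (1.86). In LC-DTA it was 0.657, 0.664 and 0.974 under vehicle and 0.696, 0.274, 0.350 and 0.651 after croton oil (-0.25 ± 0.16). The responses differed by -2.11 ± 0.23. Rbp7, a cellular retinol-binding protein, rose from 6.89 to 10.1 TPM to 20.5 to 24.7 in LC-DTR (1.42 ± 0.12, adjusted p = 2.2e-06) and from 8.04 to 10.4 TPM to 13.5 to 15.6 in LC-DTA (0.58 ± 0.12, adjusted p = 0.0011), with responses that differed by -0.84 ± 0.17 (adjusted p = 0.0044). Dgat1, which can esterify retinol for storage, rose in LC-DTR (0.65 ± 0.10, adjusted p = 0.00015) and LC-DTA (0.57 ± 0.10, adjusted p = 0.00028). Bcmo1, the enzyme that cleaves beta-carotene into retinal, fell in both (-0.59 ± 0.11, adjusted p = 0.00048, and -0.57 ± 0.11, adjusted p = 0.00045) and was lower in LC-DTA under both treatments (-0.68 ± 0.11, adjusted p = 0.0014, and -0.66 ± 0.10, adjusted p = 0.00012).

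All 3 tested genes of retinoic acid binding and breakdown outside the members fell in LC-DTR, and 2 fell and 1 rose in LC-DTA. Fabp5 rose in LC-DTA from 1803, 1426 and 1665 TPM to 2599, 2446, 2094 and 2146 (0.51 ± 0.10, adjusted p = 0.00086), as Crabp2 was higher there. In LC-DTR it went from 1626, 1679 and 1826 to 1358, 1368, 1654 and 1353 (-0.26 ± 0.10, adjusted p = 0.049), a call that was lost in 15 alternatives, among them without each LC-DTR sample except croton oil sample 3 (-0.21 to -0.29). The responses differed by 0.77 ± 0.15 (adjusted p = 0.003). Crabp1, the other cellular retinoic acid-binding protein, fell in LC-DTR from 6.06 to 6.86 TPM to 2.33 to 4.94 (-0.89 ± 0.22, adjusted p = 0.0038). In LC-DTA it fell from 9.93 to 14.6 TPM to 6.19 to 12.1 (-0.53 ± 0.22, adjusted p = 0.048), with overlap, and that call was lost in 15 alternatives, among them both rescalings and without LC-DTA vehicle sample 2 (-0.42) or 3 (-0.51) or croton oil sample 1 (-0.45), 2 (-0.57) or 4 (-0.42). It was higher in LC-DTA than in LC-DTR under vehicle (0.81 ± 0.23, adjusted p = 0.022) and after croton oil (1.17 ± 0.20, adjusted p = 0.00033). The vehicle call was lost without LC-DTR vehicle sample 1 (0.76) or 2 (0.84), without LC-DTA vehicle sample 2 (0.70) or 3 (0.78), and after quantile normalization. Cyp26a1, a retinoic acid hydroxylase whose gene retinoic acid itself induces, was at 25.6, 10.2 and 24.5 TPM in LC-DTR vehicle and 7.13, 12.4, 10.7 and 11.2 after croton oil (-0.82 ± 0.30, adjusted p = 0.034). In LC-DTA it was at 41.2, 29.6 and 36.1 and at 18.2, 26.8, 22.8 and 12.2 (-0.84 ± 0.30, adjusted p = 0.026). The LC-DTR call was lost without vehicle sample 1 (-0.60) or 3 (-0.63) or croton oil sample 1 (-0.66) or 3 (-0.84). The LC-DTA call was lost without vehicle sample 1 (-0.73) or 3 (-0.83) or croton oil sample 1 (-0.82) or 4 (-0.64).

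Of the other receptors, 2 of 4 tested fell in LC-DTR and 3 of 4 in LC-DTA, and 0 rose. Rxra, the RXR most abundant here, fell from 189, 202 and 177 TPM to 119, 146, 141 and 117 in LC-DTR (-0.53 ± 0.09, adjusted p = 0.00021) and from 154, 164 and 151 to 103, 86.9, 91.3 and 97.5 in LC-DTA (-0.72 ± 0.09, adjusted p = 1.4e-05). Rxrb was at 51.0 to 55.4 and 51.3 to 60.5 TPM in LC-DTR (0.02 ± 0.07, adjusted p = 0.85) and fell from 56.3 to 58.7 to 35.5 to 40.4 in LC-DTA (-0.62 ± 0.07, adjusted p = 7.4e-06), and its responses differed by -0.63 ± 0.09 (adjusted p = 0.00092). Rara, far less abundant than Rarg, was higher in LC-DTA under vehicle (0.50 ± 0.10, adjusted p = 0.0035) and after croton oil (0.54 ± 0.09, adjusted p = 0.00017).

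Among the 6 tested genes that retinoic acid is known to induce in other settings, 1 rose and 1 fell in LC-DTR, and 2 rose and 2 fell in LC-DTA. Tgm2, tissue transglutaminase, rose from 26.1 to 28.3 TPM to 34.6 to 50.5 in LC-DTR (0.51 ± 0.15, adjusted p = 0.011) and from 28.2 to 31.7 to 39.4 to 61.0 in LC-DTA (0.62 ± 0.15, adjusted p = 0.0028). Hoxa4, a homeobox gene, fell in LC-DTR from 2.46 to 3.00 TPM to 1.17 to 1.60 (-0.64 ± 0.10, adjusted p = 0.00013) and differed by -0.18 ± 0.10 in LC-DTA (adjusted p = 0.13). Rarres1, the most abundant of the 6, fell in LC-DTA from 433 to 507 TPM to 380 to 431 (-0.22), a call lost in 6 alternatives. In LC-DTR it was at 452 to 540 and 509 to 575 (0.13, not called). After croton oil it was lower in LC-DTA than in LC-DTR (-0.46), called in every alternative. Ret, a receptor tyrosine kinase also made by neurons, rose in LC-DTA from 2.96 to 3.37 TPM to 4.50 to 5.35 (0.50 ± 0.11, adjusted p = 0.0012). It was higher in LC-DTA than in LC-DTR under vehicle (0.68 ± 0.11, adjusted p = 0.0014) and after croton oil (0.94 ± 0.10, adjusted p = 9e-06). In LC-DTR its difference was 0.23 ± 0.11 (adjusted p = 0.087), and 0.28 and called without croton oil sample 2.

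**Figure D4:**
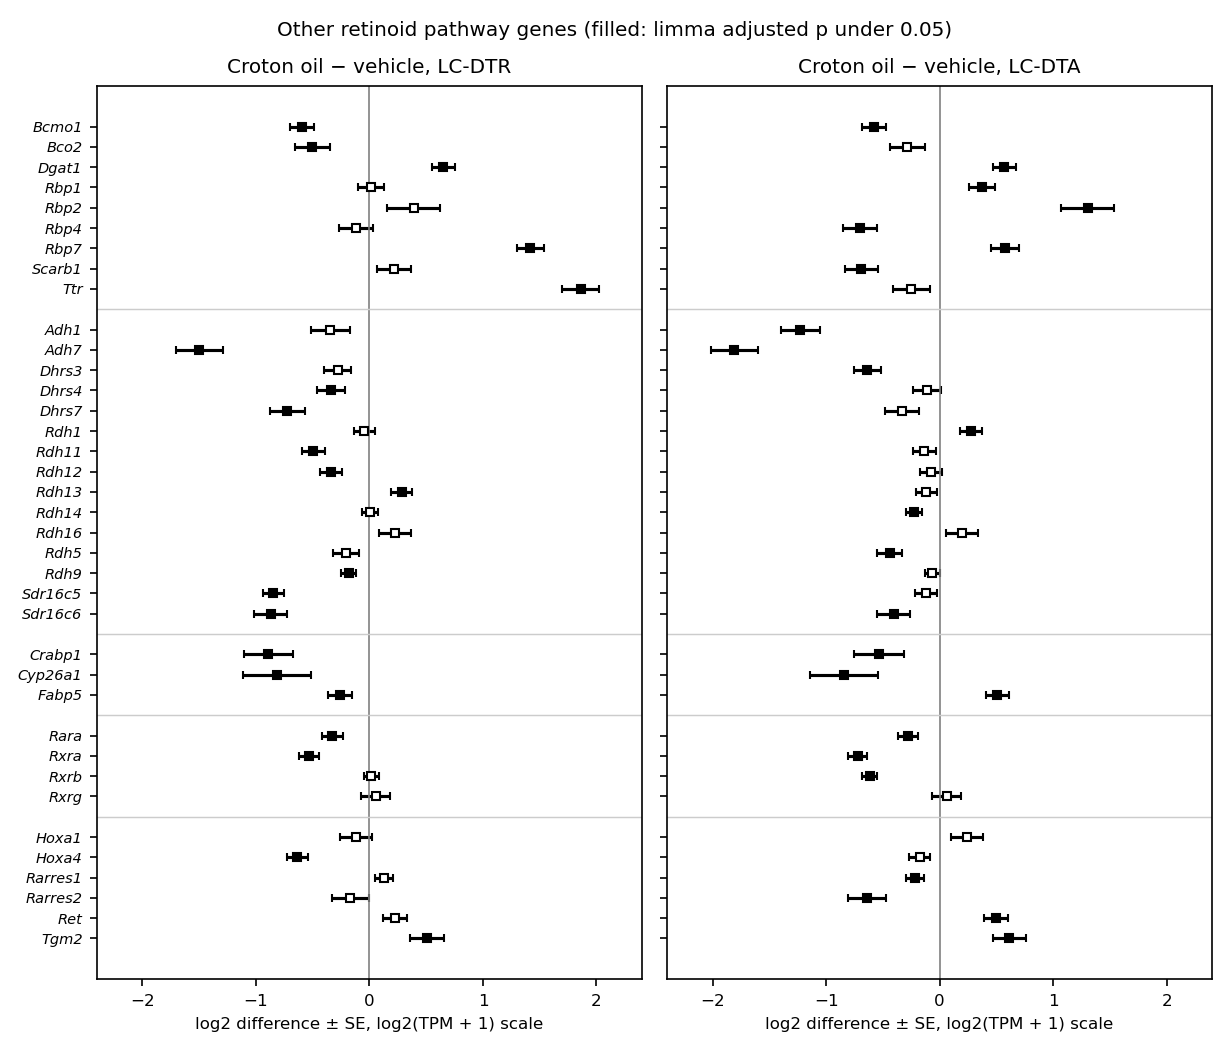
Difference ± SE after croton oil on the log2(TPM + 1) scale in LC-DTR (left) and LC-DTA (right) for the 37 tested pathway genes outside the members, grouped by role, filled where limma's adjusted p was under 0.05. Adh7 lies furthest below 0 in both panels (-1.50 and -1.81), and Ttr lies furthest above 0 in LC-DTR (1.86) but not in LC-DTA (-0.25).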

How the data were processed

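The authors deposited TPM, 1 per gene and sample, for 14 ears in 4 groups. Per the labels' protocols, libraries were made with a stranded mRNA kit. Tools named in the submitters' processing notes are featureCounts, Subread, HISAT2 and cutadapt, and the build is mm10. Not given in the sources used here are how TPM were derived, the annotation and the use of strand. The 9 members and the lists of other pathway genes and cell type markers were chosen with earlier results of these data known.

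Of 24062 rows, 27 named as dates (0.124 to 0.145% of the TPM) were left out, and 14693 of 24035 genes, with at least 1 TPM in at least 3 samples, were tested. limma 3.58.1 in R 4.3.3 fitted log2(TPM + 1) of all samples with 4 group means in 1 model and a mean-variance trend, and two-sided p-values were Benjamini-Hochberg adjusted within each of 5 comparisons. The script was tested on simulated data. The same replicate numbers recur in the groups but did not pair the samples. The text names the members, up to 4 called genes with the lowest p of each pathway list, the 3 genes with the highest r to each member, and Cd207. Aldh1a7 and single cell markers were added after values were seen. The markers are Krt5, Krt10, Krt14, Trp63, Cd209a, Itgax, Flt3, Zbtb46, Ccr7, Xcr1, Ly6c2, Ccr2, Mrc1, C1qa, C1qb, Csf1r and Emr1. Alternatives were pseudocounts of 0.1 and 5, no filter or 5 TPM, median ratio and quantile scaling, no trend, robust estimation, a replicate block, only the compared groups, samples left out, and Aldh1a1 and Aldh1a7 summed. Promoters are RefSeq's on GRCm38.p6 and positions GENCODE M21's. Python 3.11.15, pandas 2.3.3 and matplotlib 3.10.9 were used.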

Additional observations from a re-analysis of the deposited data

Results flagged for a closer look

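In groups of 4, the highest and the lowest sample were checked against the others with Dixon's criterion over the 9 members and 19 named pathway genes, 56 groups in all, of which chance alone flags about 1 in 20. It picked out 4. Cyp26b1 in LC-DTA croton oil sample 1 was 102 TPM, against 139 to 146 in the other samples, and Rarg in the same sample was 119, against 88.7 to 93.9. Ttr in LC-DTR croton oil sample 3 was 7.14, against 4.78 to 5.15, and Fabp5 in the same sample was 1654, against 1353 to 1368.

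The croton oil responses of LC-DTA and LC-DTR differed past limma's threshold for 3 members and 8 named pathway genes, on the log2 scale as LC-DTA minus LC-DTR. For the members, selected on these samples, the values were -1.80 for Aldh1a1, 0.97 for Aldh1a3 and 0.66 for Crabp2. For the other genes they were -2.11 for Ttr, -0.84 for Rbp7, 0.73 for Sdr16c5, -0.88 for Adh1, 0.77 for Fabp5, -0.63 for Rxrb, 0.46 for Hoxa4 and -0.35 for Rarres1. Ttr passed the filter through the LC-DTR croton oil samples, where it is high, so its call is not read. Adh1 lost the call without LC-DTR croton oil samples 2 and 3 (-0.62). Hoxa4 lost it without LC-DTR vehicle sample 2 (0.44) or LC-DTA vehicle sample 2 (0.44) or 3 (0.46), and Rarres1 without any of 8 single samples, with values of -0.26 to -0.35.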

How the results depend on the processing

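Of 45 differences of the members, 25 were called, 16 of them in every alternative that tested the gene, and 0 of the called ones changed direction. Of 95 differences of named pathway genes, 61 were called, 44 of them in every alternative that tested the gene, and 0 of the called ones changed direction. The members were selected on these samples, and the named pathway genes as called genes with the lowest p. How many were called or stayed called is therefore not read as a result. The shares of all genes called are given above for each comparison. Differences near 0 that were not called crossed 0 in some alternatives. Without LC-DTA croton oil samples 3 and 4, 5 members were called for croton oil in LC-DTA (8 with all samples). Leaving out each sample in turn gave 1781 to 3777 genes for the genotypes under vehicle (3595 with all samples, 1781 without LC-DTR vehicle sample 2, 2093 without LC-DTA vehicle sample 3), 1 to 3 members (2 with all samples) and 8 to 15 pathway genes (14 with all samples), and 2214 to 3569 genes for the difference of the responses (3389 with all samples, 2214 without LC-DTA vehicle sample 2). Under vehicle a filter of 5 TPM left 1 member and 9 pathway genes called, and quantile normalization 9 pathway genes. That filter took genes at low TPM, Stra6 among them, out of testing. A pseudocount of 5 lowered the croton oil difference in LC-DTR to 0.77 for Aldh1a3, 0.66 for Dhrs9 and -0.35 for Stra6. Same-numbered samples of different groups correlated at -0.32 to 0.13, and 0 of 14 matched best with their own number. With the number as a replicate block, calls over all genes went from 7577 to 6445 and from 8619 to 7733 for croton oil in LC-DTR and LC-DTA, from 3595 to 2879 and from 7688 to 7048 between genotypes under vehicle and croton oil, and from 3389 to 2660 for the difference of the responses. TPM show no depth, so what depth limits could not be assessed.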
